A study of Mus musculus with 10 samples.

Results

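The NRF2, glutathione and antioxidant enzyme genes are a set of 41 genes, among 32132 genes with a count in at least 1 library, whose RNA was measured in the colon of mice with dextran sulfate sodium (DSS) colitis. The members were taken by gene symbol from a list of 41 names, by a rule that used no values, but the list was proposed with earlier results of these data known. All 41 symbols had counts in every library. A filter on low counts left 19615 genes to test and kept all 41 members. The 10 libraries come from colons of adult wild-type C57BL/6 mice, all given 3% DSS, a sulfated polysaccharide that injures the colon epithelium, in their water for 7 days. For the 5 libraries of the PBS group, phosphate-buffered saline was also injected into a vein daily, 200 ul per 20 g of body weight. For the 5 of the 4-HDHA group the same volume carried 4-HDHA, a hydroxylated form of docosahexaenoic acid, at a strength the labels write as 5 um. The 1 comparison, 4-HDHA against PBS, asks how 4-HDHA bears on gene expression in the inflamed colon; both groups carry the DSS injury, and no colon without DSS was analysed here.

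NRF2, encoded by Nfe2l2, is a transcription factor that KEAP1 holds in the cytoplasm and marks for destruction. Oxidants and electrophiles modify cysteines of KEAP1, after which NRF2 gathers in the nucleus, pairs with a small MAF protein and binds antioxidant response elements near genes for glutathione synthesis, thioredoxin, NADPH supply, heme breakdown and conjugation of electrophiles. In the gut these enzymes detoxify food compounds and limit damage from oxidants that neutrophils and macrophages release in colitis.

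The core of the antioxidant response element was searched as TGACNNNGC on both strands, in RefSeq promoter windows of 250 bases before to 50 after a gene's start on GRCm38.p6, the mm10 build. A window was found for 35 of the 41 members, and 11 of these (31.4%) held the core in at least 1 window, against 13.99% of all 27025 genes with a window. Those members were Nfe2l2, Gclm, Txnrd1, Srxn1, Prdx1, Sod1, G6pdx, Pgd, Me1, Gsta3 and Abcc2. The 5 sequences below show the core in context in members that lay lower with 4-HDHA at an unadjusted p under 0.05 (Prdx1, Gclm) and in members that did not (Sod1, Txnrd1, Gsta3). They are written on the gene's own strand, with the core, or its reverse complement, in capitals.
Prdx1, chr4:116685446-116685494, plus strand: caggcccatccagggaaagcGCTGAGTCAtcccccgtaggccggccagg
Gclm, chr3:122245403-122245451, plus strand: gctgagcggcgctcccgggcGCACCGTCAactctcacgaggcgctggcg
Sod1, chr16:90220686-90220734, plus strand: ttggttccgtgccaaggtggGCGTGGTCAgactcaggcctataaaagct
Txnrd1, chr10:82859094-82859142, plus strand: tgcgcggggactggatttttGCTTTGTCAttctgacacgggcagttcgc
Gsta3, chr1:21240444-21240492, plus strand: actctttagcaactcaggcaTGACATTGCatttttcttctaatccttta
None of these 5 stretches overlaps an exon of GENCODE M21. Those of Prdx1, Gclm, Sod1 and Gsta3 lie before the start of the gene as the deposited table places it, and that of Txnrd1 lies inside the gene, in an intron, before one of its later starts. The Prdx1 core begins 133 bases before the RefSeq start and also holds TGACTCA, the site of AP-1 factors; the Gclm core begins 134 bases before it. A match is a description of letters and shows no binding.

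Total counts per library ranged from 50915365 to 66470519. Levels are given in CPM, counts scaled to an equal library size with edgeR's TMM factors. The colon markers Cdx2, Car1, Car4, Aqp8, Slc26a3, Muc2 and Guca2a were each counted in every library. Of the 8 genes of the colon list, 1 of them not named here, 6 had a negative and 2 a positive fold change with 4-HDHA. The median was -0.29, and 2 lay lower and 0 higher at an unadjusted p under 0.05. Over all tested genes 49% had a negative fold change, and 7.45% lay lower and 7.39% higher at that p. Markers of other cell types also differed between the groups. All 10 smooth muscle markers had a positive fold change with 4-HDHA, 4 of them at an unadjusted p under 0.05, and their summed level was 1103 to 5234 CPM with PBS and 1491 to 8369.7 CPM with 4-HDHA, lowest in PBS replicate 3 and 4-HDHA replicate 5. All 9 macrophage markers, 7 of 7 tested fat cell markers and all 8 B cell markers also had positive fold changes, with summed levels of 219.9 to 527, 28.4 to 41.8 and 4.46 to 32.1 CPM with PBS and 372 to 919.6, 40.05 to 176 and 9.64 to 456 CPM with 4-HDHA. The highest B cell sum was that of 4-HDHA replicate 5, and Adipoq, Plin1 and Retn had no count in PBS replicate 3, Lep in PBS replicates 1, 2 and 3, and Cr2 in PBS replicate 2. All 8 cell cycle markers had negative fold changes (207 to 1227 against 138 to 546 CPM summed), as had 7 of 8 neutrophil markers (390.0 to 1160.5 against 263 to 721 CPM). At an unadjusted p under 0.05, 5 fat cell, 2 macrophage and 2 B cell markers lay higher, and 3 cell cycle and 0 neutrophil markers lower. The median log2 fold change was 2.95 for fat cell, 2.55 for B cell, 0.86 for smooth muscle and 0.46 for macrophage markers. It was -0.59 for neutrophil and -1.29 for cell cycle markers. The 10 epithelial markers Epcam, Cdh1, Krt8, Krt18, Krt19, Krt20, Vil1, Cdx2, Cldn7 and Elf3 were split, 4 higher and 6 lower, at 9769 to 15686 CPM with PBS and 9978 to 16337 CPM with 4-HDHA. Of these 10, Cdx2 alone was at an unadjusted p under 0.05, lower with a log2 fold change of -1.46. The epithelial, smooth muscle, neutrophil and macrophage lists were set against each member, and the first pair also entered fits as covariates; the part of the other lists was not tested.

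The members differed widely in level. Levels of different genes are compared in FPKM, the authors' fragment counts scaled by transcript length and library size, as means over the 10 libraries. The thioredoxin gene Txn1 (716 FPKM), the ferritin genes Ftl1 (542) and Fth1 (528) and the peroxiredoxin gene Prdx6 (532) led, and their libraries overlapped one another. Gpx1 (187 FPKM), Gpx2 (155 FPKM) and Prdx1 (115 FPKM), all peroxide-removing enzymes, followed; Gpx2 averaged 229.9 ± 129 FPKM with PBS, near Gpx1 at 201 ± 9.85, but 79.4 ± 47.3 against 173 ± 15.5 with 4-HDHA (SD, n = 5 each). The regulator Nfe2l2 (38.8 FPKM) was above its inhibitor Keap1 (10.6 FPKM), with no overlap between the genes' libraries. Nqo1 (5.08 FPKM), often used to read NRF2 activity, was 36th of the 41, and the transporters Slc7a11 (0.509 FPKM) and Abcc2 (0.206 FPKM) were lowest. Each pair of neighbours in this order overlapped between libraries except Fth1 and Gpx1.

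**Figure D1:**
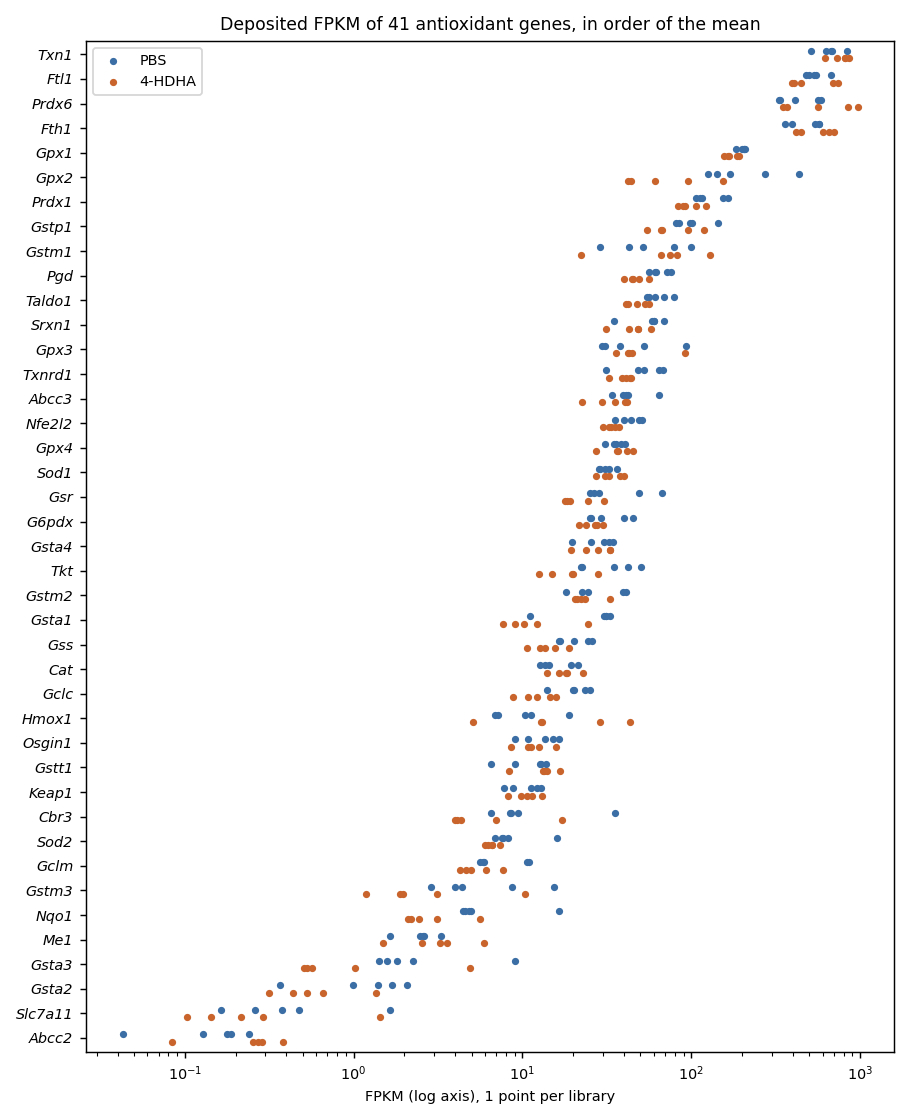
Deposited FPKM of the 41 antioxidant genes on a log axis, 1 point per library, PBS in blue and 4-HDHA in orange, ordered by the mean. Levels run from 0.206 FPKM for Abcc2 to 716 FPKM for Txn1, and Gpx2 has its 4-HDHA points to the left of most PBS points.

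Most of the set had lower fitted levels with 4-HDHA, but no member passed edgeR's quasi-likelihood test after Benjamini-Hochberg adjustment over all genes. Of the 41 members, 28 had a negative log2 fold change of 4-HDHA over PBS and 13 a positive one, where 49% of all tested genes were negative. The median was -0.33 over members and 0.01 over all tested genes. With 1 library left out the median over members ran from -0.42 without PBS replicate 2 to -0.23 without PBS replicate 4. At an unadjusted p under 0.05 by edgeR 13 members lay lower, where 7.45% of all tested genes did, and 0 lay higher, where 7.39% did. These 13 were Nfe2l2, Gclc, Gclm, Gss, Gsr, Gpx2, Prdx1, Sod2, Pgd, Tkt, Taldo1, Nqo1 and Gsta1. None of the 41 passed the adjusted threshold of 0.05, nor did any of the 19615 genes (0%); the members' edgeR adjusted p ran from 0.291 to 0.971. The DESeq2 Wald test, run as an alternative, called 1 member lower, Gpx2 (DESeq2 adjusted p = 0.0217), and 0 higher, where it called 0.516% of the genes it tested lower and 0.97% higher. In 2 members, Gss and Sod2, each 4-HDHA library lay below each PBS library, which held for 1.63% of all tested genes; in 0 members was it the other way, which held for 1.16%. Genes vary together, so the members' count is not a count of independent results, and the list was proposed with earlier results of these data known. The labels do not say that each library is a separate animal, so the p-values measure the spread between these libraries. In bulk tissue, fewer cells of a type and less RNA per cell cannot be told apart.

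**Figure D2:**
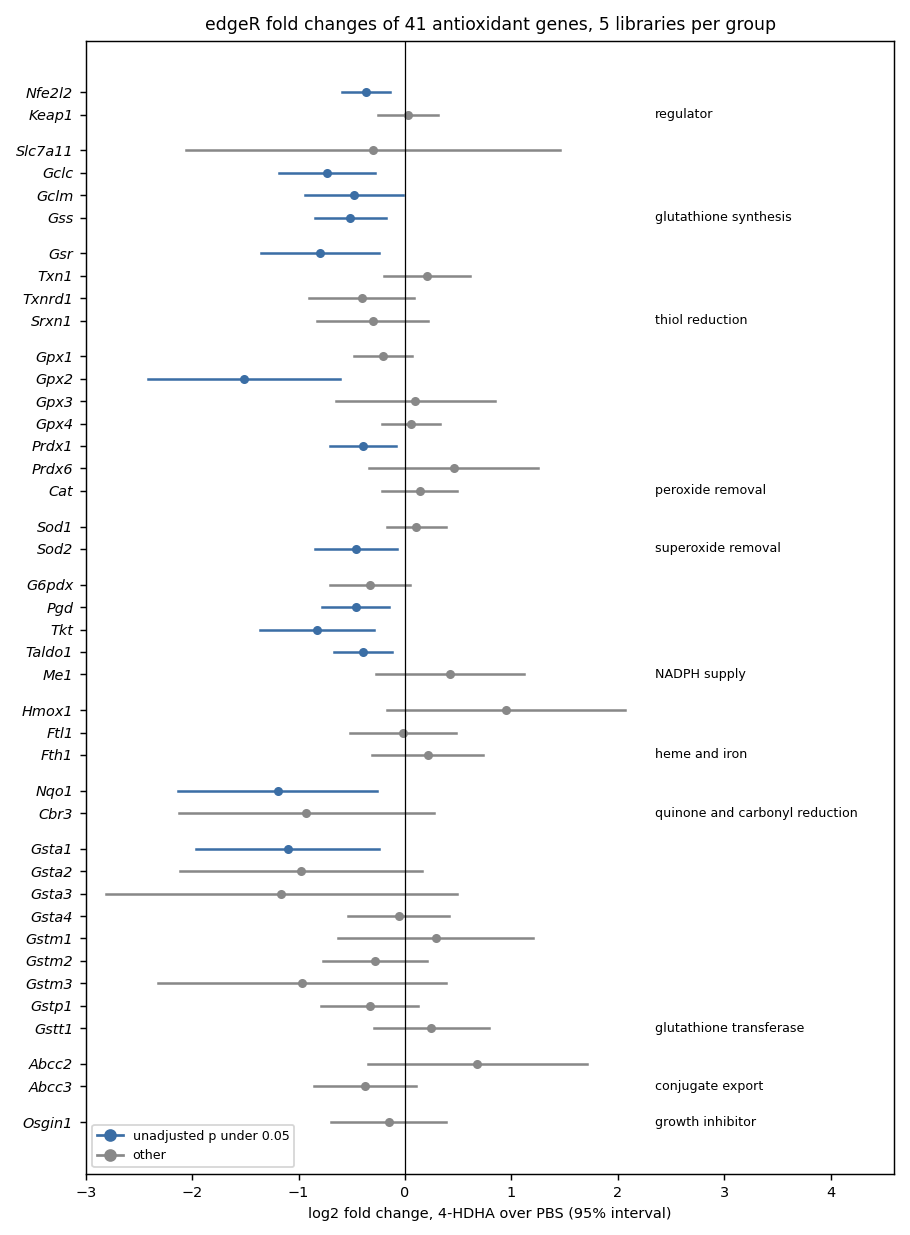
Log2 fold change of 4-HDHA over PBS for each of the 41 genes by edgeR, grouped by role, with 95% intervals (5 libraries per group); blue marks an unadjusted p under 0.05. All 13 blue genes lie left of 0, Gpx2 farthest at -1.51, and Hmox1 is the point farthest to the right at 0.95.

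The regulators differed from each other in pattern. Nfe2l2 (chromosome 2, 75675513 to 75704641, minus strand, on mm10 as deposited, like all gene positions here), which encodes NRF2, was at 186, 197, 195, 183 and 165 CPM with PBS and 145, 130.4, 129, 148 and 166 CPM with 4-HDHA, replicates 1 to 5 in order here and in all such lists. Only PBS replicate 5 and 4-HDHA replicate 5 met between the groups; the other 8 libraries stood apart. The means were 185 ± 12.8 against 144 ± 15.03 CPM (mean ± SD, n = 5 each), and edgeR's log2 fold change was -0.37 (SE 0.10, edgeR adjusted p = 0.291). Keap1, the adaptor that delivers NRF2 to a ubiquitin ligase, was at 44.5, 60.1, 60.7, 58.1 and 50.97 CPM with PBS and 53.98, 61.2, 62.5, 42.97 and 58.4 CPM with 4-HDHA. Its groups overlapped throughout, with a log2 fold change of 0.03 (95% interval -0.26 to 0.31); exons of an antisense gene, Gm16754, cover 10.9% of its exon bases, and although the library kit marks strand, whether the counting used it is not given in the sources used here.

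All 4 genes of glutathione synthesis had a negative fold change with 4-HDHA, where 49% of all tested genes did. Of the 4, 3 were at an unadjusted p under 0.05, where 7.45% of all tested genes lay lower. Gclc (chromosome 9, 77754535 to 77794485, plus strand), the catalytic subunit of the rate-limiting glutamate-cysteine ligase, was at 109, 55.3, 76.3, 104 and 92.1 CPM with PBS and 64.7, 46.2, 60.4, 36.7 and 54.03 CPM with 4-HDHA. Of the PBS libraries replicate 2 alone lay within the range of the 4-HDHA group. Its means were 87.3 ± 21.8 against 52.4 ± 11.2 CPM (mean ± SD, n = 5 each), and edgeR's log2 fold change was -0.74 (SE 0.20, edgeR adjusted p = 0.291). Gclm, the modifier subunit of the same ligase, was at 45.6, 37.3, 66.6, 75.4 and 45.4 CPM with PBS and 45.1, 30.7, 49.01, 34.4 and 34.2 CPM with 4-HDHA; PBS replicates 3 and 4 were high and the other 3 lay among the 4-HDHA values. Its log2 fold change was -0.48 (SE 0.21, edgeR adjusted p = 0.328), and without PBS replicate 4 it was -0.33. Its unadjusted p was above 0.05 there and without PBS replicate 3 and without 4-HDHA replicate 2, 4 or 5. Gss, glutathione synthetase, which adds the glycine, was at 120.3, 126, 144, 168 and 119.6 CPM with PBS and 109, 86.2, 114, 69.7 and 95.2 CPM with 4-HDHA. All PBS values were above all 4-HDHA values, 119.6 CPM being the lowest of the former and 114 CPM the highest of the latter, and the log2 fold change was -0.52 (SE 0.15, edgeR adjusted p = 0.295). Exons of the neighbour Acss2 on the other strand cover 15.4% of the exon bases of Gss.

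Slc7a11, the cystine importer that feeds this pathway, went by library rather than by group. It was at 6.43, 2.41, 22.8, 7.31 and 4.49 CPM with PBS and 1.72, 3.44, 2.03, 4.51 and 23.5 CPM with 4-HDHA. PBS replicate 3 and 4-HDHA replicate 5 stood alike and far above the other 8 libraries, and the log2 fold change of -0.31 had a 95% interval of -2.06 to 1.45. It was 0.45 without PBS replicate 3 and -1.57 without 4-HDHA replicate 5, there at an unadjusted p under 0.05, so its sign rests on those libraries.

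**Figure D3:**
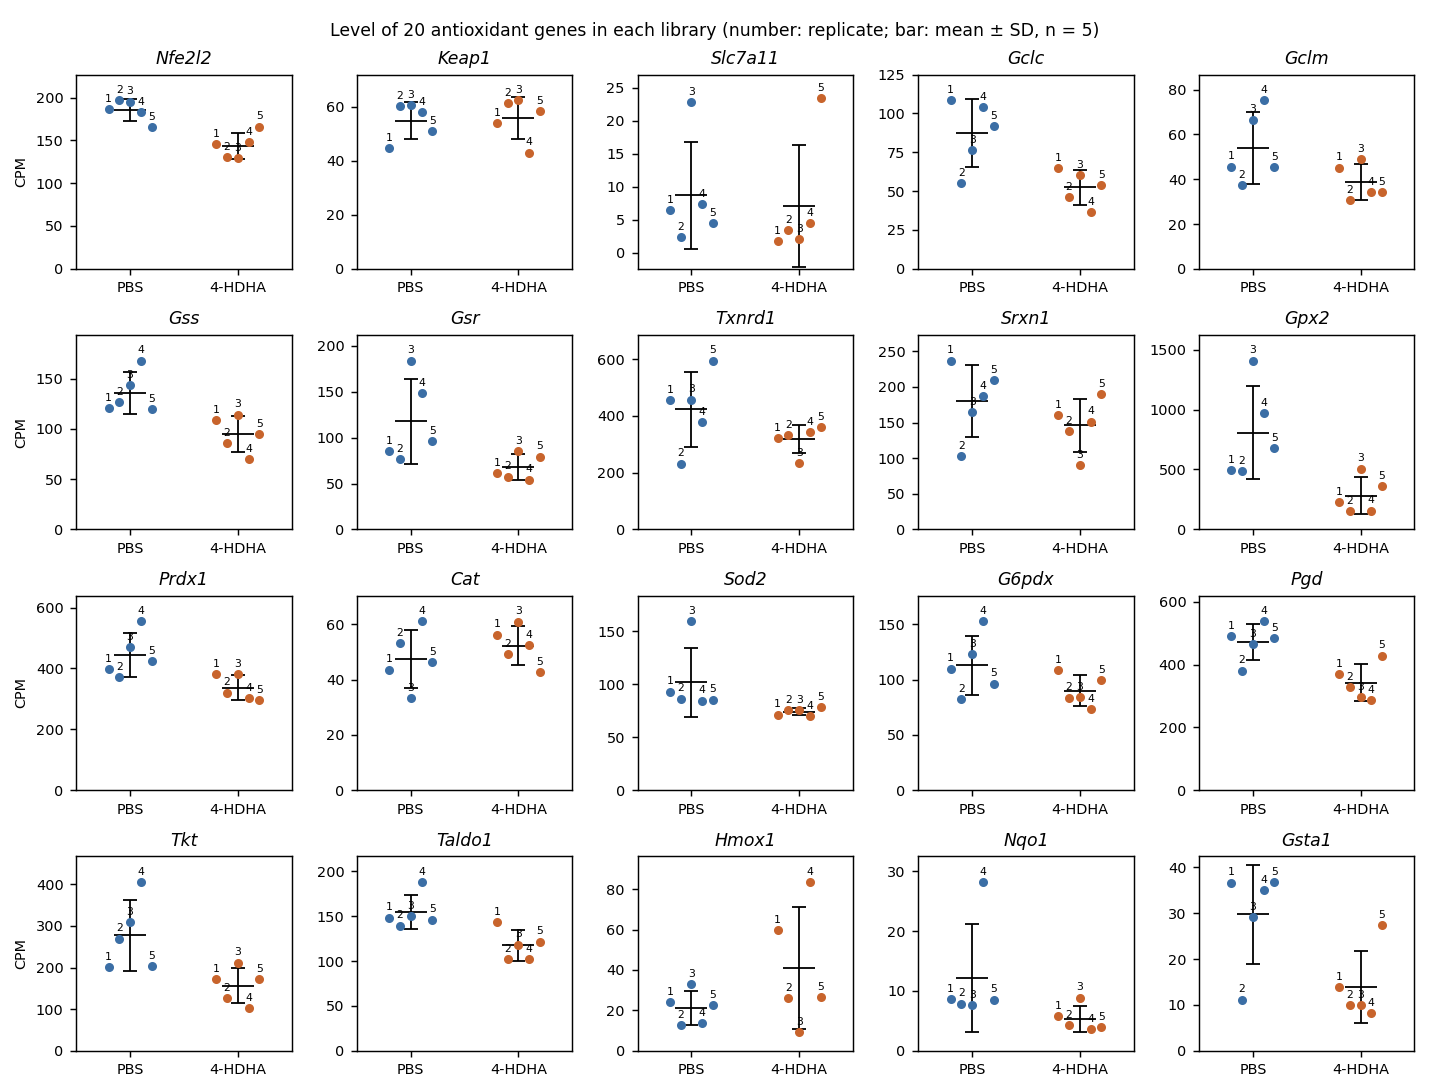
CPM of 20 antioxidant genes in each library; points are libraries with their replicate number, bars the mean ± SD (n = 5), and axes include 0. Gss and Sod2 show no overlap between groups, Gpx2 spans 155 to 1408 CPM, and Slc7a11 has 1 high library in each group.

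Among genes that keep thiols reduced, Gsr was the 1 of 4 at an unadjusted p under 0.05, where 7.45% of all tested genes lay lower. Gsr (chromosome 8, 33652523 to 33698163, plus strand), the reductase that regenerates glutathione with NADPH, was at 84.9, 76.5, 184, 149 and 96.3 CPM with PBS and 61.7, 57.6, 85.6, 54.2 and 79.3 CPM with 4-HDHA. PBS replicates 3 and 4 were the 2 highest of all libraries, replicate 5 was also above every 4-HDHA library, and PBS replicates 1 and 2 overlapped the upper 4-HDHA values. The means were 118 ± 46.3 against 67.7 ± 13.9 CPM (mean ± SD, n = 5 each), and edgeR's log2 fold change was -0.80 (SE 0.25, edgeR adjusted p = 0.303). With the smooth muscle marker mean as a covariate it was -0.47, at an unadjusted p above 0.05. Txnrd1, which reduces thioredoxin, was at 455, 232, 458, 379 and 595 CPM with PBS and 323, 334, 234, 344 and 361 CPM with 4-HDHA, a log2 fold change of -0.41 (95% interval -0.90 to 0.09). Srxn1, sulfiredoxin, which rescues over-oxidized peroxiredoxins, was at 237, 103, 165, 188 and 209 CPM with PBS and 160.4, 138, 89.8, 151 and 190.4 CPM with 4-HDHA, a log2 fold change of -0.31 (95% interval -0.83 to 0.22). In both genes PBS replicate 2 and 4-HDHA replicate 3 were the lowest of their groups, and the groups overlapped. Txn1 itself ranged over 536 to 968 CPM with PBS and 667 to 1061 CPM with 4-HDHA, with a log2 fold change of 0.21 (95% interval -0.20 to 0.61), and 0.39 with the epithelial covariate, there at an unadjusted p under 0.05.

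Of the 7 genes that remove peroxides, Gpx2 had the largest difference of the whole set in the fit without covariates over all 10 libraries; Gsta3 exceeded it with the epithelial covariate, Gsta3, Nqo1 and Gstm3 with the smooth muscle covariate, Gsta3 without 4-HDHA replicate 3, and Gsta3 and Nqo1 without PBS replicate 3. Gpx2 (chromosome 12, 76792333 to 76795554, minus strand), a selenium-dependent glutathione peroxidase of the gut epithelium, was at 492, 484, 1408, 972 and 678 CPM with PBS and 229.8, 155, 508, 156 and 364 CPM with 4-HDHA. PBS replicates 3 and 4 were highest, and 4-HDHA replicate 3 alone reached into the PBS range, above PBS replicates 1 and 2. The level was 2.85-fold higher with PBS by the fitted log2 fold change of -1.51 (SE 0.41, 95% interval -2.42 to -0.61; edgeR adjusted p = 0.291). It ran from -1.83 to -1.22 with 1 library left out, and was -1.67 with the epithelial marker mean and -1.07 with the smooth muscle marker mean as a covariate. A pseudogene, Gpx2-ps1, shares 5.17% of the 100-base stretches of the longest Gpx2 transcript; its count was 12 to 203 per library, against 8560 or more for Gpx2.

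The related peroxidases did not share that size of difference. Gpx1, the cytosolic peroxidase found in most cells, ranged over 287 to 369 CPM with PBS and 230.0 to 316 CPM with 4-HDHA (log2 fold change -0.21, 95% interval -0.48 to 0.07). The plasma peroxidase gene Gpx3 ranged over 58.8 to 169.7 CPM with PBS and 76.1 to 183 CPM with 4-HDHA, with PBS replicate 3 and 4-HDHA replicate 4 high and a log2 fold change of 0.10 (-0.65 to 0.84). Gpx4, which reduces lipid peroxides in membranes, ranged over 64.9 to 76.3 CPM with PBS and 55.7 to 85.9 CPM with 4-HDHA (log2 fold change 0.06, -0.22 to 0.33), and 48.4% of its transcript is repeated in a pseudogene, which makes its counts uncertain. Prdx1, a thioredoxin-linked peroxidase, was at 397, 371, 469.6, 555 and 425 CPM with PBS and 382, 321, 380.2, 303 and 297 CPM with 4-HDHA. PBS replicate 2 alone lay within the 4-HDHA range, and its log2 fold change was -0.40 (SE 0.14, edgeR adjusted p = 0.303). Prdx6, a peroxiredoxin that uses glutathione, had a positive log2 fold change of 0.46 (95% interval -0.34 to 1.25); 4-HDHA replicates 1 and 2 reached 5470.4 and 4631 CPM, and the other 8 libraries lay between 1612 and 3489 CPM. The Prdx6 value was 0.21 without 4-HDHA replicate 1 and 0.04 with the smooth muscle covariate. Cat, catalase, was at 43.6, 53.2, 33.3, 61.1 and 46.4 CPM with PBS and 56.2, 49.1, 60.9, 52.5 and 42.8 CPM with 4-HDHA, with overlapping groups and a log2 fold change of 0.14 (95% interval -0.21 to 0.49).

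The superoxide dismutase genes parted. Sod2, the mitochondrial manganese enzyme, was at 92.9, 86.2, 159, 84.5 and 85.3 CPM with PBS and 71.2, 75.4, 75.3, 69.7 and 78.01 CPM with 4-HDHA. All 5 4-HDHA libraries lay below all 5 PBS libraries and close together, while PBS replicate 3 stood far above the rest of its group. The log2 fold change was -0.46 (SE 0.17, edgeR adjusted p = 0.311), -0.24 without PBS replicate 3 and -0.24 with the smooth muscle covariate, there at an unadjusted p above 0.05. Sod1, the cytosolic copper-zinc enzyme, ranged over 113 to 159.8 CPM with PBS and 128 to 178 CPM with 4-HDHA, with a log2 fold change of 0.11 (95% interval -0.17 to 0.38).

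All 4 members that belong to the pentose phosphate pathway, which supplies NADPH and ribose, had negative fold changes, where 49% of all tested genes did. Further genes of that pathway lie outside the set. Pgd, Tkt and Taldo1 were at an unadjusted p under 0.05 and G6pdx was not, where 7.45% of all tested genes lay lower at that p. G6pdx, the first and rate-limiting enzyme, was at 109.9, 82.03, 123, 153 and 96.3 CPM with PBS and 108, 83.8, 84.4, 73.4 and 99.7 CPM with 4-HDHA; PBS replicates 3 and 4 were high, replicate 1 was barely above the highest 4-HDHA library, replicates 2 and 5 overlapped it, and the log2 fold change was -0.33 (95% interval -0.70 to 0.05). The neighbour Ikbkg covers 13.6% of its exon bases on the other strand. Pgd, the second NADPH-producing step, was at 489.8, 381, 465, 538 and 484 CPM with PBS and 371, 328, 295, 286 and 429 CPM with 4-HDHA; 4-HDHA replicate 5 alone exceeded the lowest PBS value, that of replicate 2. Its log2 fold change was -0.46 (SE 0.14, edgeR adjusted p = 0.297). Tkt, transketolase of the non-oxidative branch (chromosome 14, 30548359 to 30574720, plus strand), was at 200.4, 269.5, 309.7, 406 and 203 CPM with PBS and 171, 126, 212, 102 and 172 CPM with 4-HDHA. PBS replicates 2, 3 and 4 were above every 4-HDHA library, replicates 1 and 5 were not, and the log2 fold change was -0.83 (SE 0.24, edgeR adjusted p = 0.295). Taldo1, transaldolase of the same branch, was at 149, 139.5, 151, 188 and 146 CPM with PBS and 144, 102, 118, 102 and 122 CPM with 4-HDHA; 4-HDHA replicate 1 alone reached the PBS values, and the log2 fold change was -0.40 (SE 0.13, edgeR adjusted p = 0.303). Me1, malic enzyme, a cytosolic NADPH source outside that pathway, ranged over 7.68 to 13.95 CPM with PBS and 6.76 to 25.2 CPM with 4-HDHA, with a log2 fold change of 0.43 (95% interval -0.27 to 1.12). It was 0.14 without 4-HDHA replicate 4, 0.61 without 4-HDHA replicate 5, there at an unadjusted p under 0.05, and 0.02 with the smooth muscle covariate. Beside these genes, all 8 cell cycle markers had negative fold changes in the same libraries, with a median of -1.29; their part was not tested.

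None of the 3 heme and iron genes was at an unadjusted p under 0.05, and Hmox1 had the largest positive fold change of the set. Hmox1 (chromosome 8, 75093621 to 75100589, plus strand), the inducible enzyme that breaks heme into biliverdin, iron and carbon monoxide, was at 24.2, 12.7, 33.1, 13.7 and 22.5 CPM with PBS and 59.8, 26.2, 9.13, 83.6 and 26.4 CPM with 4-HDHA. 4-HDHA replicates 1 and 4 exceeded all PBS libraries and 4-HDHA replicate 3 was the lowest of all 10. The log2 fold change was 0.95 (SE 0.51, 95% interval -0.17 to 2.07), 0.54 without 4-HDHA replicate 4 and 1.21 without 4-HDHA replicate 3, only the last at an unadjusted p under 0.05. 4-HDHA replicate 4 also had the highest summed macrophage markers, 919.6 CPM, where the other 9 libraries had 219.9 to 562 CPM. Over the 10 libraries Hmox1 had r = 0.772 with the macrophage markers (permutation adjusted p = 0.121) and rho = 0.697 (permutation adjusted p = 0.261). Without PBS replicate 4 and 4-HDHA replicate 4 its r was 0.663 (exact permutation p = 0.0723, adjusted p = 0.292). Within groups r was 0.733 (exact permutation p = 0.0219, adjusted p = 0.2475). The ferritin heavy chain gene Fth1 ranged over 1308 to 2445 CPM with PBS and 1483 to 2704 CPM with 4-HDHA (log2 fold change 0.21, -0.31 to 0.73), and the light chain gene Ftl1 over 672 to 999 CPM with PBS and 542 to 1160.0 CPM with 4-HDHA (log2 fold change -0.02, -0.52 to 0.48). Pseudogenes repeat 60.4% of the Ftl1 transcript, and its sign changed in several fits, so its counts are uncertain.

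In both quinone and carbonyl reductases PBS replicate 4 stood far above the rest. Nqo1 (chromosome 8, 107388225 to 107403206, minus strand), a quinone reductase, was at 8.64, 7.91, 7.67, 28.3 and 8.56 CPM with PBS and 5.74, 4.35, 8.88, 3.61 and 4.01 CPM with 4-HDHA. PBS replicate 4 was over 3 times any other value, the other PBS libraries lay close together, and of the 4-HDHA group replicate 3 alone reached them. The log2 fold change was -1.20 (SE 0.42, edgeR adjusted p = 0.303), and -0.62 without PBS replicate 4, still at an unadjusted p under 0.05. Cbr3, a carbonyl reductase, ranged over 10.03 to 48.9 CPM with PBS and 5.57 to 21.96 CPM with 4-HDHA, again with PBS replicate 4 and 4-HDHA replicate 3 the highest of their groups. Its log2 fold change of -0.93 (95% interval -2.13 to 0.27) was -0.21 without PBS replicate 4 and -1.44 without 4-HDHA replicate 3, the latter at an unadjusted p under 0.05.

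Glutathione transferases join glutathione to electrophiles, and 7 of the 9 members had negative fold changes, where 49% of all tested genes did. Only 1 of the 9 lay lower at an unadjusted p under 0.05, which is near the 7.45% of all tested genes. Gsta1, an alpha class enzyme, was at 36.6, 11.2, 29.1, 34.97 and 36.8 CPM with PBS and 13.8, 9.91, 9.96, 8.19 and 27.3 CPM with 4-HDHA. PBS replicate 2 lay among the 4-HDHA values, 4-HDHA replicate 5 lay just below the other PBS values, and the log2 fold change was -1.10 (SE 0.39, edgeR adjusted p = 0.303) and -0.93 without 4-HDHA replicate 4, where the unadjusted p was above 0.05. Near-identical genes repeat 81.8% of the Gsta1 transcript, most of it in Gm3776, whose mean was 34.9 CPM in the PBS group and 17.4 CPM in the other, so that the split of reads between them is uncertain; for Gsta2 the repeated share was 35.02%. Gsta2 ranged over 0.476 to 2.74 CPM with PBS and 0.435 to 1.895 CPM with 4-HDHA (log2 fold change -0.98, -2.11 to 0.16), and the mu class gene Gstm3 over 3.77 to 22.2 CPM with PBS and 1.73 to 13.8 CPM with 4-HDHA (log2 fold change -0.97, -2.32 to 0.38). For Gsta3, with a log2 fold change of -1.16 (-2.81 to 0.49), the values were 9.56, 6.54, 6.87, 43.4 and 12.1 CPM with PBS and 2.72, 5.07, 21.8, 2.44 and 2.92 CPM with 4-HDHA; PBS replicate 4 and 4-HDHA replicate 3 were again the highest of their groups, as for Gstm3. Without PBS replicate 4 the log2 fold change was -0.33 for Gsta3 and -0.48 for Gstm3, and without 4-HDHA replicate 3 it was -2.26 and -1.73, there at an unadjusted p under 0.05. With the epithelial covariate Gsta3 was at -2.22, also at an unadjusted p under 0.05. Gstp1, the pi class enzyme, ranged over 152 to 245 CPM with PBS and 98.9 to 188 CPM with 4-HDHA (log2 fold change -0.33, -0.79 to 0.12), with 52.8% of its transcript repeated in Gstp2. Gstm1 ranged over 42.2 to 162 CPM with PBS and 38.2 to 195 CPM with 4-HDHA and was lowest in PBS replicate 3 and 4-HDHA replicate 5. The remaining log2 fold changes of the family were -0.06 for Gsta4, -0.28 for Gstm2, 0.29 for Gstm1 and 0.25 for the theta class gene Gstt1, all with intervals across 0.

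The exporters of conjugates had opposite signs. Abcc3 ranged over 194 to 404 CPM with PBS and 142 to 280.2 CPM with 4-HDHA (log2 fold change -0.38, 95% interval -0.86 to 0.10). Abcc2 was at 1.899, 2.18, 0.388, 1.21 and 2.004 CPM with PBS and 2.57, 2.83, 2.37, 3.65 and 0.885 CPM with 4-HDHA (log2 fold change 0.68, 95% interval -0.35 to 1.71), low in PBS replicate 3 and 4-HDHA replicate 5. Osgin1, a growth inhibitor induced by oxidative stress, ranged over 24.1 to 54.5 CPM with PBS and 23.2 to 49.4 CPM with 4-HDHA, with a log2 fold change of -0.15 (-0.70 to 0.39).

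A further 59 genes of NRF2 control, glutathione use, peroxide removal and conjugation were read in the same fit. Of these, 37 had a negative and 22 a positive log2 fold change, with a median of -0.10; 10 lay lower and 2 higher at an unadjusted p under 0.05, and 0 passed the edgeR adjusted threshold. Over all tested genes 49% were negative, 7.45% lay lower and 7.39% higher at that p. The 2 higher were Ephx1 (log2 fold change 0.55) and Aldh3a1 (1.89), both named after their values were seen. Aldh3a1 had no overlap between groups, as in 1.16% of all tested genes, but its levels were very low. They ranged over 0 to 0.715 CPM with PBS, with no count in PBS replicate 3, and 0.996 to 3.5 CPM with 4-HDHA. The 6 with the smallest p were all lower. Idh1, the cytosolic isocitrate dehydrogenase that makes NADPH, was at 228, 151, 288, 264 and 219 CPM with PBS and 157, 114, 153, 116 and 179 CPM with 4-HDHA, a log2 fold change of -0.68 (SE 0.19, edgeR adjusted p = 0.291). Rpe, ribulose phosphate epimerase of the pentose phosphate pathway, was at 36.5, 36.99, 51.7, 52.2 and 33.5 CPM with PBS and 27.4, 29.3, 32.7, 26.96 and 31.1 CPM with 4-HDHA, with no overlap between groups, as in 1.63% of all tested genes, and had -0.52 (SE 0.14). Gstk1, a mitochondrial and peroxisomal transferase, had -0.63, Ptgr1, a reductase of reactive alkenals, -0.69, Chac2, a glutathione-degrading enzyme, -0.43, and Prdx3, the mitochondrial peroxiredoxin, -0.56. Partners and rivals of NRF2 showed smaller differences: the repressor Bach1 had -0.15 (-0.46 to 0.17), the small MAF gene Mafg -0.23 (-0.55 to 0.09) and Sqstm1, which encodes the KEAP1-binding adaptor p62, 0.26 (-0.16 to 0.68).

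Within groups the members did not vary as 1 block. In the PBS group replicate 4 was the highest library for 21 of the 41 members, against 14.8% of all tested genes, and the lowest for 1. PBS replicate 2 was the lowest for 18 and PBS replicate 3 for 15, against 15.3% and 23.7% of all tested genes. In the 4-HDHA group replicate 3 was highest for 14 of the 41 members, which is near its 30.3% of all tested genes. It was also lowest for 11, against 21.8% of all tested genes. Replicate 4 of that group was lowest for 15 of the 41, against 23.5%. Nqo1, Cbr3, Gsta3, Gstm3, Gstp1, Gss and Tkt were among the members whose highest libraries were PBS replicate 4 and 4-HDHA replicate 3. Gsr, Gpx2 and Slc7a11 had PBS replicate 3 highest, and Hmox1 and Me1 had 4-HDHA replicate 4 highest.

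**Figure D4:**
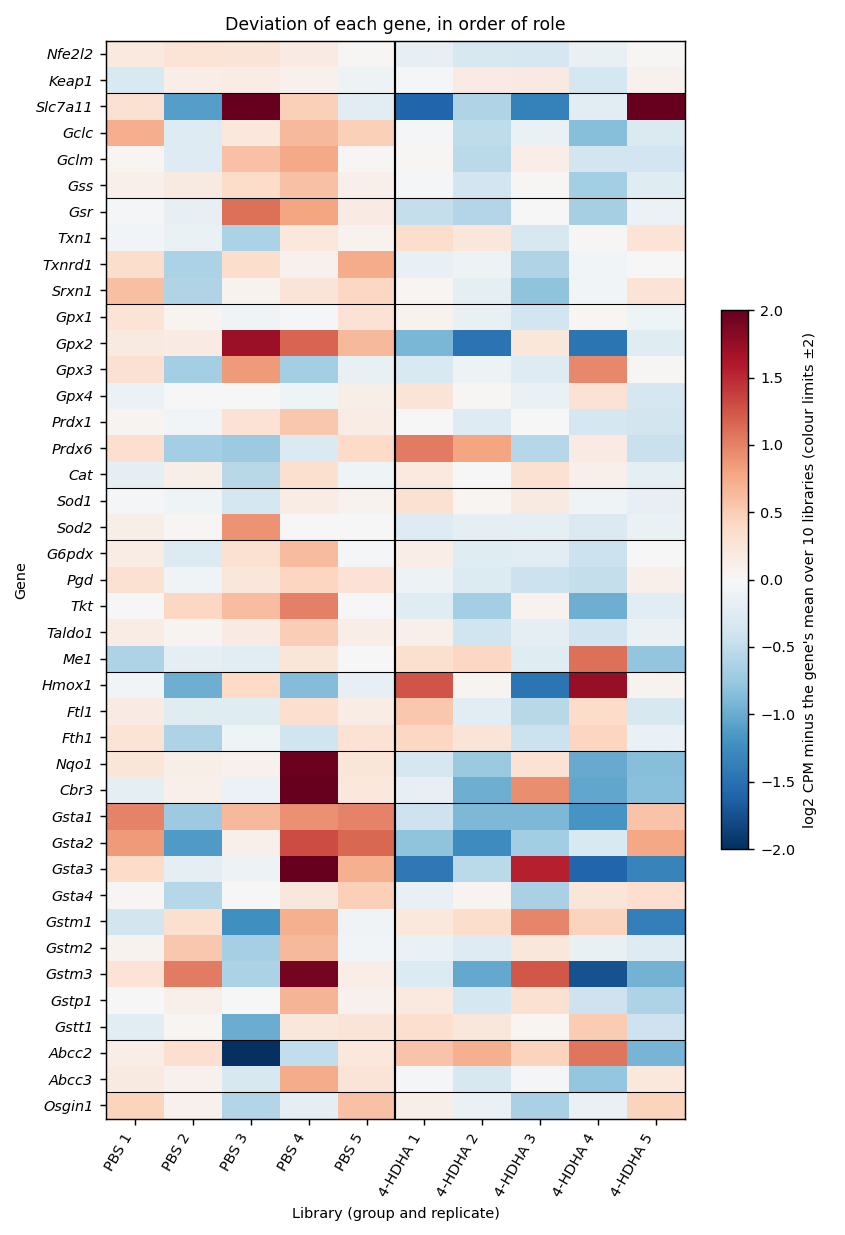
Log2 CPM of each of the 41 genes minus its mean over the 10 libraries, genes in rows by role and libraries in columns, the vertical line between PBS and 4-HDHA; colours are capped at ±2. PBS replicate 4 is red for Nqo1, Cbr3, Gsta3 and Gstm3, 4-HDHA replicate 3 is the next red column for these genes, and Slc7a11 is red in PBS replicate 3 and 4-HDHA replicate 5.

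Each member was also set against the mean log2 CPM of 4 marker lists over the 10 libraries, 164 relations in all, with 100000 two-sided permutations and Benjamini-Hochberg adjustment over the 164. By Pearson's r 6 passed an adjusted p of 0.05. Slc7a11 went with the neutrophil markers (Pearson's r = 0.925 with permutation p = 6e-05 and adjusted p = 0.00984, Spearman's rho = 0.879 with permutation p = 0.00133 and adjusted p = 0.0672). Without PBS replicate 2 and 4-HDHA replicate 1, the libraries farthest from the median of those markers, r was 0.915 (exact permutation p = 0.00114), and within groups it was 0.920 (exact permutation p = 0.000833). This mean weighs the 8 neutrophil markers alike, and 1 of them had no count in at least 1 library. It ranks libraries unlike the summed CPM of the same markers. The mean and sum were 1.18 and 717 CPM in 4-HDHA replicate 1, and 4.01 and 405 CPM in PBS replicate 4. The relation of Slc7a11 to the sum was not tested. Slc7a11 also went against the smooth muscle markers (r = -0.910, permutation adjusted p = 0.0180; rho = -0.842, permutation adjusted p = 0.124), with r = -0.758 without PBS replicate 3 and 4-HDHA replicate 5 (exact permutation p = 0.0285). Abcc2 went with the smooth muscle markers (Pearson's r = 0.904 with permutation p = 0.00013 and adjusted p = 0.0107, Spearman's rho = 0.939 with permutation p = 0.0002 and adjusted p = 0.0328), with r = 0.785 without PBS replicate 3 and 4-HDHA replicate 5 (exact permutation p = 0.0159). Gstt1 with smooth muscle (r = 0.860, rho = 0.806), Osgin1 with epithelium (r = 0.852, rho = 0.758) and Tkt against macrophage markers (r = -0.870, rho = -0.818) also passed by r, at permutation adjusted p = 0.0348, 0.0354 and 0.0418, but not by rho (permutation adjusted p = 0.164, 0.261 and 0.161). Without the 2 farthest libraries their r was 0.638, 0.648 and -0.575, with exact permutation p of 0.0904, 0.0848 and 0.138. Within groups it was 0.847, 0.861 and -0.863, with exact permutation p of 0.00701, 0.00111 and 0.00326. For Slc7a11 with smooth muscle and Abcc2 it was -0.928 and 0.881 within groups (exact permutation p = 0.00278 and 0.00875). After adjustment over the 164 relations, none of the 6 passed within groups or without the 2 farthest libraries. Gpx2 had r = 0.00679 with the epithelial markers over all 10 libraries (rho = -0.0909, permutation p = 0.986 and 0.810). It had r = 0.767 without PBS replicate 3 and 4-HDHA replicate 3 (exact permutation p = 0.0327, adjusted p = 0.237) and -0.470 within groups (exact permutation p = 0.223), so its value depends on those libraries.

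**Figure D5:**
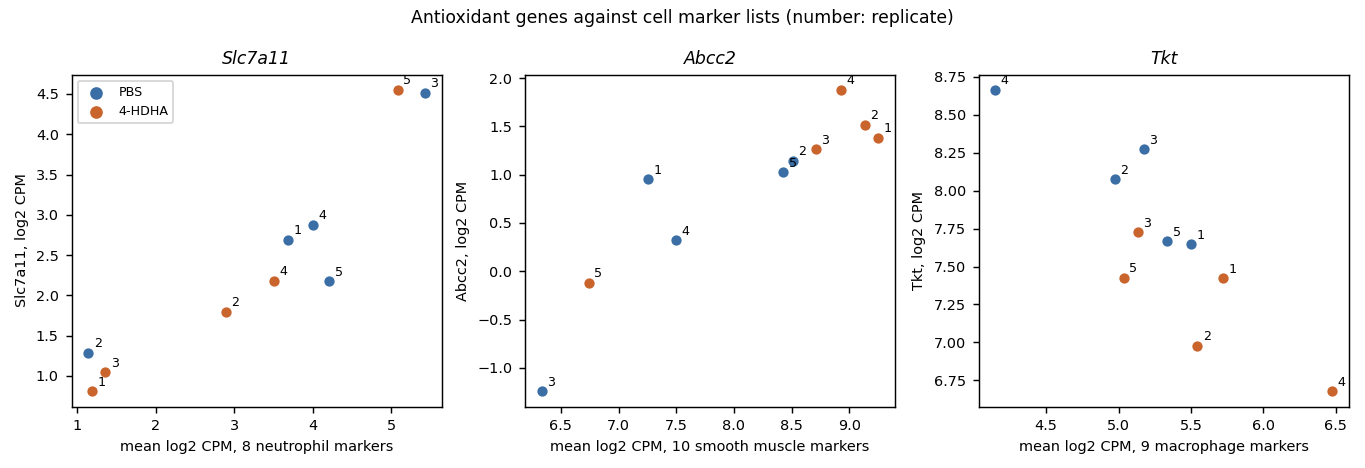
Log2 CPM of Slc7a11, Abcc2 and Tkt against the mean log2 CPM of 8 neutrophil, 10 smooth muscle and 9 macrophage markers; each point is a library with its replicate number, PBS in blue and 4-HDHA in orange. Slc7a11 is higher where the neutrophil markers are higher in both groups, and in the Tkt panel PBS replicate 4 and 4-HDHA replicate 4 form the ends.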

How the data were processed

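Poly(A) RNA from mouse colon was sequenced as strand-marked paired-end libraries, per the labels' protocols. Tools listed in the submitters' processing notes, with no role or order, are edgeR, DESeq2, HISAT2 2.0.4, cutadapt 1.9 and StringTie 1.3.4d, and the build is mm10. How reads were counted, and with which strand setting, is not given in the sources used here. Raw counts per gene and FPKM were deposited by the authors, in tables of 55401 genes, and the count columns of the deposited tables did not differ in any cell (0 differences). No deposited value was changed.

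Counts were tested in R 4.3.3 with edgeR 4.0.16 (filterByExpr, TMM factors, robust quasi-likelihood fit and F test, 5 libraries against 5), with Benjamini-Hochberg adjustment over all 19615 tested genes at a threshold of 0.05. Log2 CPM used a prior count of 2. Alternatives were DESeq2 1.42.0, limma 3.58.1 with voom quality weights, RLE size factors, no filter on low counts and a stricter one, limma-trend on log2 of FPKM plus a pseudocount, the replicate number as a block, the epithelial or smooth muscle marker mean as a covariate, and each library left out. The fits were checked on simulated data. Total counts of 50915365 to 66470519 per library set the counting precision, and the SD over libraries includes the rest.

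Groups came from the labels. The members and all lists were chosen with earlier results of these data known. Values in each library are given for members at an unadjusted p under 0.05 and for a set of central NRF2 genes whatever their values. Of the further pathway genes the 6 with the smallest p and Bach1, Mafg and Sqstm1 are named. Of the colon marker list 1 gene is not reported here. Promoter windows are RefSeq's on GRCm38.p6, and no window was used for Gclc, Gsr, Prdx6, Hmox1, Gsta4 and Abcc3. Exons and transcripts for shared sequence came from GENCODE M21.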

Additional observations from a re-analysis of the deposited data

Results flagged for a closer look

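In 9 of the 82 groups of 5 libraries (41 genes in each group) 1 library stood apart from the other 4 on the log2 CPM scale, its gap to the nearest being over 0.71 of the whole range. For independent, normally distributed values chance gives about 1 in 20. Members vary together, and the share over all tested genes was not computed, so an excess over chance cannot be read from these flags. PBS replicate 4 was the library that stood apart in 4 of the 9. It was high for Nqo1 at 28.3 CPM, for Cbr3 at 48.9 CPM, for Gstp1 at 245 CPM and for Taldo1 at 188 CPM. PBS replicate 3 was high for Sod2 at 159 CPM, and PBS replicate 2 was low for Gsta1 at 11.2 CPM. In the 4-HDHA group replicate 3 was low for Txnrd1 at 234 CPM and high for Gstm2 at 56.5 CPM, and replicate 4 was high for Gpx3 at 183 CPM.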

How the results depend on the processing

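The sign of all 13 members at an unadjusted p under 0.05 was the same in all 21 alternatives. By edgeR 11 of them kept a p under 0.05 in each of the 10 fits without 1 library, and Gclm and Gsta1 did not. The 13 were picked by their p in the same counts, which these fits reuse in whole or in large part. Keeping sign and p is thus no independent support, and the same share was not computed for other genes at that p. Of all 41 members, 35 kept their sign in those 10 fits and 30 in the 11 other alternatives. DESeq2 called 308 genes and 1 member (Gpx2), where edgeR called 0 and 0; it gave Cbr3 no adjusted p. With the smooth muscle marker mean as a covariate 10 of the 13 members stayed at p under 0.05, all but Gclm, Gsr and Sod2, and with the epithelial one 13. The background moved too. Of all 19615 tested genes, 500 lay lower and 939 higher at that p with the smooth muscle covariate. With the epithelial one 2779 lay lower and 1285 higher, against 1462 and 1449 without a covariate. Of the 13, 11 stayed in each FPKM fit and 12 with voom. A single member lay higher at that p with the epithelial covariate (Txn1), without 4-HDHA replicate 3 (Hmox1) and without 4-HDHA replicate 5 (Me1). With the epithelial covariate the log2 fold change turned to -0.00951 for Keap1, 0.0843 for Ftl1, 0.0512 for Gsta4, -0.0777 for Gstm1 and 0.11 for Osgin1. With the smooth muscle covariate it turned to 0.62 for Slc7a11, -0.0859 for Gpx4, -0.0237 for Cat, -0.0173 for Sod1, 0.0191 for Gsta4, -0.41 for Gstm1, -0.0964 for Gstt1 and -0.0480 for Abcc2. With 1 library left out it ran from -0.0419 to 0.13 for Keap1, -1.57 to 0.45 for Slc7a11, -0.18 to 0.39 for Gpx3, -0.00224 to 0.14 for Gpx4, -0.19 to 0.0930 for Ftl1 and -0.18 to 0.0678 for Gsta4. The cause of these turns was not tested. Of the 6 relations with marker lists, 0 passed the adjustment within groups and 0 without the 2 farthest libraries, by exact tests with fewer arrangements. Deviations from the group mean correlated at 0.013, 0.084, 0.077, -0.316 and -0.003 between libraries of the same number, over all tested genes. The labels say nothing of pairs, and these correlations cannot exclude a pairing that acts on some of the genes. A block on the replicate number left 0 genes called, and 2437 in place of 2911 were at an unadjusted p under 0.05. In that fit 12 of the 13 members, all but Nqo1, were among the 13 members at that p. Depth limits Abcc2 and Gsta2 most, the members with the fewest counts.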
